A study of Mus musculus with 6 samples.

Results

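Proteasome subunits and their regulators were examined in poly(A) RNA profiles of brain tissue from adult male C57 mice that the labels class as high or low in sexual motivation, with 3 libraries in each class. All genes of the deposited table whose symbol starts with Psma, Psmb, Psmc, Psmd, Psme or Psmg were taken, which gave 45 of 13170 genes, or 0.342%. The rule left out Psmb8 and Psmb9, which in any case have no row in that table. Both groups carry the same genotype label and no treatment, so that they differ, by the labels, only in the behavioural class. The title places the tissue in the medial amygdala, whereas the extraction text uses the abbreviation PrL and the tissue field says only brain. The sources used here give neither the scoring of motivation nor whether a library holds 1 animal or a pool, so the p-values here reflect just the variation among these 6 libraries, part of which may be technical.

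The proteasome is the protease that degrades proteins tagged with ubiquitin. Its barrel-shaped 20S core is built of alpha rings, which gate the entry, and beta rings, which hold the proteolytic sites. The 19S particle caps the core: its ATPases unfold the substrate and thread it into the barrel, and its non-ATPase subunits bind the substrate and remove the ubiquitin chain. In neurons the proteasome turns over synaptic proteins, and its activity is needed for several forms of synaptic plasticity. Dedicated chaperones assemble the core and the cap, and other activators can take the place of the cap.

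Values are FPKM (fragments scaled to transcript length and to the mapped fragments of the library), a scale that takes account of transcript length, given as mean ± SD over 3 libraries unless stated. Differences are given as high minus low on log2(FPKM + 1), called the log2 difference, with its standard error and an adjusted p from limma, corrected by the Benjamini-Hochberg method over the 12026 genes with a mean of at least 1 FPKM. All 45 proteasome genes passed this filter, and a call means an adjusted p under 0.05.

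Relative depth, estimated from low-expressed genes, spanned 0.953 to 1.33, with the deepest library being high library 2, and absolute depth is unknown. In high library 2, mitochondrial transcripts took the smallest share of summed FPKM, 11.1%, against 13.6% to 16.4% elsewhere. Markers of the choroid plexus, 5 of 5 listed, summed to 67.0, 108 and 38.6 FPKM in high-motivation libraries, against 1322, 78.2 and 4117 FPKM in low-motivation libraries. The 5 ependymal markers summed to 6.45 to 7.74 FPKM in high-motivation libraries, against 14.0 to 23.8 FPKM in low-motivation libraries, and the 4 endothelial markers to 45.8 to 51.4 FPKM in the high-motivation group, against 41.1 to 44.0 FPKM in low-motivation libraries. Sums of neuronal markers overlapped between the groups, at 674 to 750 FPKM in the high-motivation group, against 659 to 706 FPKM in low-motivation libraries. Oligodendrocyte markers overlapped narrowly, summing to 334, 281 and 323 FPKM in high-motivation libraries, against 257, 275 and 286 FPKM in low-motivation libraries. Astrocyte sums (120 to 188 FPKM in the high-motivation group, 147 to 175 FPKM in the low) and microglial sums (89.0 to 94.7 FPKM and 84.3 to 95.8 FPKM) overlapped too. All listed markers of the amygdala and subpallium (5 of 5, 23.1 to 33.2 FPKM in sum in high-motivation libraries and 24.5 to 32.1 FPKM in low-motivation libraries) and of cortical excitatory neurons (4 of 4, 164 to 295 FPKM in the high-motivation group, against 202 to 263 FPKM in low-motivation libraries) were present. The part of these marker differences in the results below was not tested. In such bulk tissue, fewer cells of a type and less RNA per cell cannot be told apart.

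The proteasome genes were nearly level between the groups. None of the 45 was called, where 0% of all genes tested were called, and 28 were higher and 17 lower in the high group, against 50.1% of all genes tested with a positive difference. The median log2 difference was 0.011 over the proteasome genes and 0.0002 over all genes tested. The excess of higher members rested on high library 2, since 21 of 45 were higher and the median was −0.0024 without it. One member, Psmd14, had an unadjusted p under 0.05, while 8.39% of all genes tested did. The groups did not overlap in 4 members, 2 higher (Psmd9 and Psmb7) and 2 lower (Psmd14 and Psmd12). Over all genes tested 14.9% had groups that did not overlap, 7.33% higher and 7.61% lower. A share of 4 in 45 is no larger than that background.

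**Figure D1:**
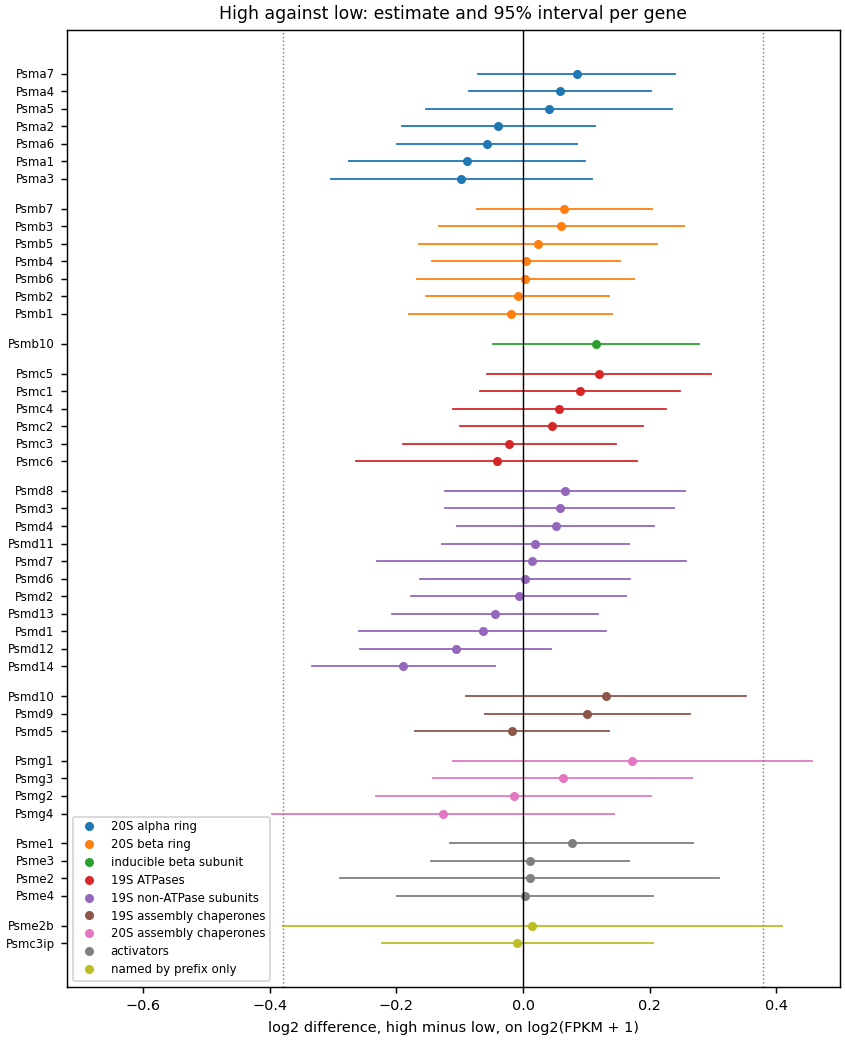
Log2 difference (high minus low, on log2(FPKM + 1)) of each of the 45 proteasome genes, with its 95% interval from limma, grouped and coloured by role. Dotted lines mark a 1.3-fold change of FPKM + 1 in either direction. Only the interval of Psmd14 leaves out 0, and 3 intervals reach a 1.3-fold line.

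The size of the differences was small as well. The absolute log2 difference was under 0.1 in 37 of 45 members (82.2%), against 59.0% of all genes tested, and its median was 0.0517 against 0.0804. The unadjusted 95% interval stayed within a 1.3-fold change of FPKM + 1 in either direction in 42 members (93.3%), against 71.8% of all genes tested. For genes near 1 FPKM, such as Psmg3, that bound allows a larger fold change of FPKM itself. The comparison is affected by expression level, because 41 of the 45 lay above the median gene of the table. Among genes with a mean of at least 5 FPKM, that interval stayed within that bound in 38 of 41 members (92.7%) and in 80.3% of all genes. The members whose interval reached 1.3-fold were Psmg1, Psmg4 and Psme2b. Across the 6 libraries, the highest value of a member exceeded its lowest by a median factor of 1.19, while the median factor over all genes tested was 1.28.

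Levels differed far more between members than between groups. The mean over 6 libraries went from 1.47 FPKM for Psmg3, a chaperone of core assembly, to 97.1 FPKM for Psmc5, an ATPase of the cap, with a median of 22.0 FPKM against 6.27 FPKM over the whole table. Medians by role were 51.7 FPKM for the 6 ATPases, 38.1 FPKM for the 7 beta-ring genes, 25.3 FPKM for the 11 non-ATPase cap genes and 23.3 FPKM for the 7 alpha-ring genes. Assembly factors were lower, at 8.24 FPKM for the 3 cap chaperones and 7.01 FPKM for the 4 core chaperones. Each ring of the core holds its subunits in equal number, yet FPKM within the alpha ring ran from 15.4 for Psma3 to 60.2 for Psma6, and within the beta ring from 15.2 for Psmb7 to 90.9 for Psmb1. Psmc5 had 96.9, 109 and 97.6 FPKM in high-motivation libraries, against 86.5, 94.6 and 98.0 FPKM in low-motivation libraries. Its groups overlapped through low library 3, with a log2 difference of 0.12 (SE 0.0766, adjusted p = 0.667). This was 0.066 when high library 2 was left out, 0.069 when low library 1 was and 0.16 when low library 3 was.

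**Figure D2:**
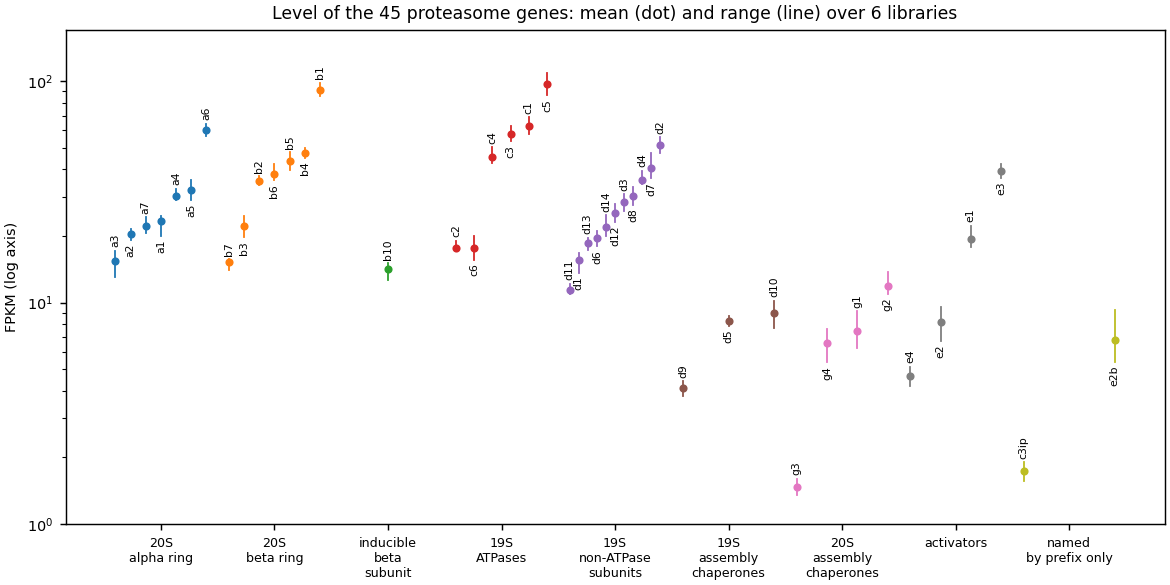
Mean (dot) and range (line) of FPKM over the 6 libraries on a log axis for each of the 45 genes, by role and labelled with the symbol without Psm (c5 is Psmc5). The levels run from 1.47 to 97.1 FPKM, and the range over libraries is short beside the distance between genes.

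In the alpha ring 3 genes were higher and 4 lower, and in the beta ring 5 were higher and 2 lower, with 0 calls by limma in either. Summed FPKM of the alpha ring was 198, 203 and 209 in high-motivation libraries, against 200.2, 212 and 203 in low-motivation libraries. The alpha-ring gene with the smallest p was Psma7, at 23.0 ± 1.43 FPKM in the high-motivation group, against 21.6 ± 0.839 FPKM in the low-motivation group (log2 difference 0.08, SE 0.0676, adjusted p = 0.729, with 0.046 without high library 2 and 0.13 without high library 1). Its 3 high values, 21.4, 24.3 and 23.2 FPKM, overlapped the low values of 20.7, 22.3 and 21.8 FPKM. Psma1 and Psma3, at 22.6 ± 2.27 and 14.9 ± 1.59 FPKM in the high-motivation group, against 24.1 ± 0.750 and 16.0 ± 1.04 FPKM in the low-motivation group, had their lowest value of all 6 libraries in high library 2.

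The proteolytic sites of the core belong to Psmb6, Psmb7 and Psmb5, which cut after acidic, basic and hydrophobic residues in that order, and to inducible subunits that can replace them. Psmb6 had 35.7, 42.3 and 36.5 FPKM in high-motivation libraries, against 37.9, 38.1 and 38.0 FPKM in low-motivation libraries. The low libraries fell within a narrow band, which the high libraries spanned on both sides (log2 difference 0.0037, 95% interval −0.17 to 0.18). Psmb5, the target of proteasome inhibitors such as bortezomib, had 42.7, 47.7 and 42.1 FPKM in high-motivation libraries, against 43.4, 39.8 and 47.1 FPKM in low-motivation libraries, again with full overlap (log2 difference 0.024, 95% interval −0.16 to 0.21). Its values are uncertain, because 57.1% of the 50-base stretches of its transcript occur in transcripts of other genes, among them an annotated copy, Psmb5-ps.

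Psmb7 had 15.7, 15.4 and 15.5 FPKM in high-motivation libraries, against 15.0, 14.1 and 15.4 FPKM in low-motivation libraries. All high values lay above all low values, by a margin of less than the spread within the low group (log2 difference 0.07, SE 0.0602, adjusted p = 0.762). The difference was 0.032 without low library 2 and 0.091 without low library 3. Exons of other genes on the opposite strand cover 11.8% of the exonic bases annotated for Psmb7. Whether reads were counted by strand is not stated in the sources used here. Psmb10, the interferon-inducible subunit that takes the place of Psmb7 in the immunoproteasome, had 15.0, 15.1 and 14.4 FPKM in high-motivation libraries, against 12.7, 13.4 and 14.8 FPKM in low-motivation libraries. Low library 3 reached into the high range, and the log2 difference of 0.12 (SE 0.0704, adjusted p = 0.659) was not called. It was 0.070 without low library 1, 0.17 without low library 3 and 0.056 with the GC and length trend removed. The ratio of Psmb10 to Psmb7 was 0.953 ± 0.0222 in the high-motivation group, against 0.919 ± 0.0610 in the low group (exact permutation p = 0.6, 2-sided, where 3 against 3 libraries cannot give less than 0.1). The other inducible subunits, Psmb8 and Psmb9, have no row in the deposited table.

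**Figure D3:**
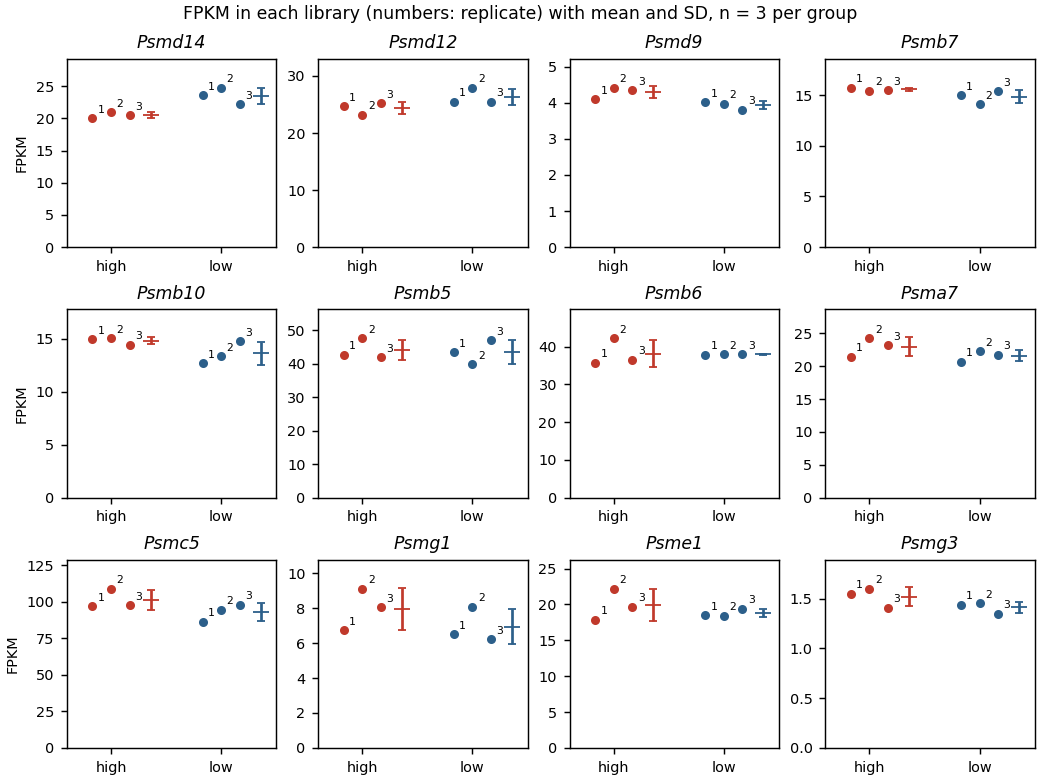
FPKM of 12 proteasome genes in each library (replicate number beside each point), high left of low, with mean and SD, n = 3 per group, on axes that start at 0. The high values lie below the low values for Psmd14 and Psmd12 and above them for Psmd9 and Psmb7, and the groups overlap in the other 8 panels.

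Among the non-ATPase subunits of the cap, 6 were higher and 5 lower. Psmd14, the metalloprotease that removes the ubiquitin chain from a substrate as it enters, had the smallest p of all 45. It had 20.01, 21.0 and 20.5 FPKM in high-motivation libraries, against 23.6, 24.8 and 22.3 FPKM in low-motivation libraries. All high libraries lay below all low libraries, and the means, 20.5 ± 0.502 FPKM in the high-motivation group and 23.5 ± 1.26 FPKM in the low-motivation group, gave a ratio of 0.871. The log2 difference was −0.19 (SE 0.0628, 95% interval −0.33 to −0.04), with p = 0.017 before adjustment and an adjusted p = 0.564 by limma, and the exact permutation p was 0.1. The authors' deposited table gives it an unadjusted p of 0.0181, and 7.4% of the 13170 genes there have one under 0.05. Low library 2 was the highest for Psmd14. Its choroid plexus markers were low, but its ependymal markers summed to 14.0 FPKM, against 6.45 to 7.74 FPKM in high-motivation libraries. Compared with low library 2 alone, the log2 difference was −0.26. Since that library is the highest for Psmd14, this comparison had to give a larger difference. The part of these markers in the difference was not tested. The gene lies on chromosome 2 from 61711694 to 61800376 on the plus strand (GRCm38).

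Psmd7, which forms a dimer with Psmd14 in the cap, had 39.0, 47.3 and 36.4 FPKM in high-motivation libraries, against 41.6, 42.8 and 36.7 FPKM in low-motivation libraries. Its groups overlapped entirely (log2 difference 0.014, 95% interval −0.23 to 0.26). The ratio of Psmd14 to Psmd7 was 0.513, 0.444 and 0.564 in high-motivation libraries, against 0.568, 0.578 and 0.607 in low-motivation libraries, so that all high ratios lay below all low ratios, with high library 3 close to low library 1 (exact permutation p = 0.1). This ratio was chosen after the values of Psmd14 were seen.

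Psmd12, a scaffold subunit of the cap, had 24.7, 23.2 and 25.2 FPKM in high-motivation libraries, against 25.5, 27.9 and 25.5 FPKM in low-motivation libraries. The groups were separate, but high library 3 lay close to low libraries 1 and 3; low library 2 was the highest. The log2 difference was −0.11 (SE 0.0654, adjusted p = 0.662). It was −0.064 without low library 2, −0.13 without high library 3 and −0.11 with the GC and length trend removed. The other 9 genes of this role had overlapping groups and log2 differences of −0.064 (Psmd1) to 0.066 (Psmd8), with the ubiquitin receptor Psmd4 at 36.5 ± 2.68 FPKM in the high-motivation group, against 35.1 ± 0.414 FPKM in the low-motivation group.

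Of the 6 ATPases, which form the unfolding ring of the cap, 4 were higher and 2 lower, with a median log2 difference of 0.05 and 0 calls by limma. Besides Psmc5, Psmc1 had the next smallest p, at 65.1 ± 3.45 FPKM in the high-motivation group, against 61.0 ± 3.19 FPKM in the low-motivation group (log2 difference 0.09, SE 0.0683; adjusted p = 0.719). Summed FPKM of the cap over that of the core was 1.22 ± 0.0610 in the high-motivation group, against 1.19 ± 0.0244 in the low group (exact permutation p = 0.6). The ratio of the summed ATPases to the summed non-ATPase subunits was 0.991, 1.03 and 1.05 in high-motivation libraries, against 0.936, 0.986 and 0.997 in low-motivation libraries, with overlap (exact permutation p = 0.2).

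Psmd9, Psmd10 and Psmd5 encode chaperones that hold pairs of ATPases during assembly of the cap and leave the finished particle. Psmd9 had 4.10, 4.41 and 4.34 FPKM in high-motivation libraries, against 4.01, 3.97 and 3.80 FPKM in low-motivation libraries. Every high value lay above every low value, with high library 1 close to low library 1. The means, 4.29 ± 0.164 FPKM in the high-motivation group and 3.93 ± 0.109 FPKM in the low-motivation group, gave a ratio of 1.09 and a log2 difference of 0.10 (SE 0.0702; adjusted p = 0.696). The authors' deposited table gives an unadjusted p of 0.0343 on untransformed FPKM. Exons of other genes on the opposite strand cover 25.5% of the exonic bases annotated for Psmd9, and the sources used here do not state whether reads were counted by strand. Psmd10, known as gankyrin, stood at 9.41 ± 0.741 FPKM in the high-motivation group, against 8.53 ± 1.05 FPKM in the low-motivation group, and Psmd5 at 8.19 ± 0.316 FPKM in the high-motivation group, against 8.30 ± 0.372 FPKM in the low-motivation group, both with overlap.

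Promoters are shown for Psmd14 and Psmd12, lower in every high library, for Psmd9, higher in every high library, and for Psmb5, a proteolytic subunit with level groups. Each is the 250 bases before the start of the gene in RefSeq (build GRCm38.p6), written 5′ to 3′ on the strand of the gene. Capitals mark matches, on either strand, to 5 motifs. The first is CCAAT, bound by factor NF-Y. The second is the GC box, GGGCGG, bound by SP family factors. The antioxidant response element, the kind of site that NFE2L1 and NFE2L2 bind, was searched by its core TGACNNNGC. An ETS family site was searched as CCGGAAG. The site of nuclear respiratory factor NRF1 was searched by its part GCGCATG. In Psmd9 a GC box overlaps the antioxidant core. The windows are chr2:61711444-61711693 on the plus strand for Psmd14, chr11:107479278-107479527 on the plus strand for Psmd12, chr5:123227940-123228189 on the plus strand for Psmd9 and chr14:54617996-54618245 on the minus strand for Psmb5.
Psmd14: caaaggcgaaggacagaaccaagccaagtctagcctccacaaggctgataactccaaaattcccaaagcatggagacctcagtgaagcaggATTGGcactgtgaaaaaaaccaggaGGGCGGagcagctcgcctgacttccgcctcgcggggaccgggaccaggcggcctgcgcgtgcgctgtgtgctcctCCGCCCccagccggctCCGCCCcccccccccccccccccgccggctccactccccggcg
Psmd12: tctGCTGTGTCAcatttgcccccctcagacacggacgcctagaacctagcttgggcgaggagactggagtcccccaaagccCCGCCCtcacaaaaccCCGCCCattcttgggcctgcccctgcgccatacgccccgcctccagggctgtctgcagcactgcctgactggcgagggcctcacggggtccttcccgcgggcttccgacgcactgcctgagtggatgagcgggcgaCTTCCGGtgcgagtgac
Psmd9: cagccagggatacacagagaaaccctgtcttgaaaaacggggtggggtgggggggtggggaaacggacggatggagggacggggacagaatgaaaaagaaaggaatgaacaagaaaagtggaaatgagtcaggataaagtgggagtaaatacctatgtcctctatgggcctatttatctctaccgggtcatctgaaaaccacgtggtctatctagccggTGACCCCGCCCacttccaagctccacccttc
Psmb5: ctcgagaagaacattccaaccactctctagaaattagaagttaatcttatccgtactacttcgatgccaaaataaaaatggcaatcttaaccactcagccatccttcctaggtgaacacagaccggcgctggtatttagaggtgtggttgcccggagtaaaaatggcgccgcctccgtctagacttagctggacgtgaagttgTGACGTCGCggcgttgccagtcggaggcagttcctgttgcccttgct

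Promoters were found for 38 of the 45 genes, in 41 windows, some of which overlap. The ETS motif occurred in 13 of these 38 genes (34.2%), against 15.2% of 9413 tested genes with a promoter and 6.91% of all 32851 promoter windows. The NRF1 motif occurred in 4 genes (10.5%), against 6.75% of tested genes and 3.24% of all windows. The antioxidant core occurred in 5 genes (13.2%) against 13.9% of tested genes and 10.2% of all windows. The GC box was present in 21 genes (55.3%), against 65.2% of tested genes and 32.7% of all windows, and CCAAT in 13 genes (34.2%), against 40.4% of tested genes and 33.9% of all windows. The 4 genes above do not share a set of motifs: Psmd14 holds CCAAT and GC boxes, Psmd12 holds GC boxes, the antioxidant core and an ETS site, Psmd9 holds the overlapping antioxidant core and GC box, and Psmb5 holds the antioxidant core alone. A match is a run of letters and no evidence of binding. A further feature of position was a divergent neighbour: 9 of 45 genes (20%) start within 1000 bases of a gene on the other strand that points away, such as Psmb1 and the TATA-binding protein gene Tbp, against 13.7% of protein-coding genes of the table.

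Among the chaperones of core assembly, 2 were higher and 2 lower, with log2 differences of −0.13 (Psmg4) to 0.17 (Psmg1). Psmg1, which pairs with Psmg2 to line up the alpha ring, had 6.73, 9.12 and 8.05 FPKM in high-motivation libraries, against 6.52, 8.09 and 6.23 FPKM in low-motivation libraries. High library 1 and low library 2 crossed the groups (log2 difference 0.17, SE 0.123, 95% interval −0.11 to 0.46; adjusted p = 0.699). Leaving out high library 2 gave 0.081, leaving out low library 2 gave 0.27 and leaving out high library 1 gave 0.28. Psmg4, which pairs with Psmg3, had 5.81, 7.58 and 5.37 FPKM in high-motivation libraries, against 7.36, 6.87 and 6.35 FPKM in low-motivation libraries. High library 2 was the highest of all 6, and the other 2 high libraries lay below all low ones. Psmg3 had 1.55, 1.60 and 1.41 FPKM in high-motivation libraries, against 1.44, 1.45 and 1.35 FPKM in low-motivation libraries, with overlap (log2 difference 0.06, SE 0.0887; adjusted p = 0.847), and 22.7% of the 50-base stretches of its transcript occur in another gene.

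All 4 activators had log2 differences between 0.0026 and 0.077. Psme1, which with Psme2 forms an interferon-inducible cap of the core, had 17.9, 22.2 and 19.7 FPKM in high-motivation libraries, against 18.5, 18.4 and 19.4 FPKM in low-motivation libraries. High library 2 alone stood above the others by more than 2 FPKM, and the log2 difference of 0.08 (SE 0.0832; adjusted p = 0.799) was −0.0008 without it. Psme3, the nuclear activator, had 39.6 ± 2.79 FPKM in the high-motivation group, against 39.2 ± 0.916 FPKM in the low-motivation group, and Psme4, an activator of the core in the nucleus, 4.69 ± 0.381 FPKM in the high-motivation group, against 4.68 ± 0.423 FPKM in the low-motivation group. Psme2 and Psme2b, its near copy on chromosome 11, are uncertain: 59.3% of the 50-base stretches of the Psme2 transcript and 69.3% of those of Psme2b occur in transcripts of other genes. Psme2 had 7.75, 7.25 and 9.58 FPKM in high-motivation libraries, against 6.70, 9.21 and 8.50 FPKM in low-motivation libraries, while Psme2b had 5.86, 9.30 and 5.41 FPKM in the high-motivation group, against 7.41, 6.23 and 6.23 FPKM in low-motivation libraries. Their sum overlapped between the groups, at 15.1 ± 1.47 FPKM in the high-motivation group, against 14.8 ± 0.666 FPKM in the low-motivation group. Psmc3ip, which carries the prefix but encodes a meiotic recombination factor that binds Psmc3 and is no proteasome subunit, had 1.89, 1.74 and 1.57 FPKM in high-motivation libraries, against 1.65, 1.70 and 1.90 FPKM in low-motivation libraries, with full overlap (adjusted p = 0.982). In all, 12 of the 45 have more than 10% of their 50-base stretches in transcripts of other genes, with 55.8% for Psmb3, and 24 have none.

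The clearest pattern among the proteasome genes lay in a single library. High library 2 held the highest value of all 6 libraries for 24 of 45 members (53.3%), against 22.8% of all genes tested, and the summed FPKM was 1221, 1301 and 1217 in high-motivation libraries, against 1209, 1246 and 1237 in low-motivation libraries. The median deviation of the members from their mean over 6 libraries was −0.027, 0.079 and −0.0012 on the log2 scale in high-motivation libraries, against −0.019, 0.0015 and 0.0061 in low-motivation libraries. High library 2 thus stood above the other 5, while the other 2 high libraries lay at or below the low libraries 2 and 3. As an expression share, members made up 0.489%, 0.526% and 0.481% of summed FPKM in high-motivation libraries, against 0.487%, 0.503% and 0.487% in low-motivation libraries. That total includes mitochondrial transcripts, which took 11.1% of it in high library 2, 15.0% in low library 2 and 13.6% to 16.4% in the others. Their part in the members' share was not tested.

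**Figure D4:**
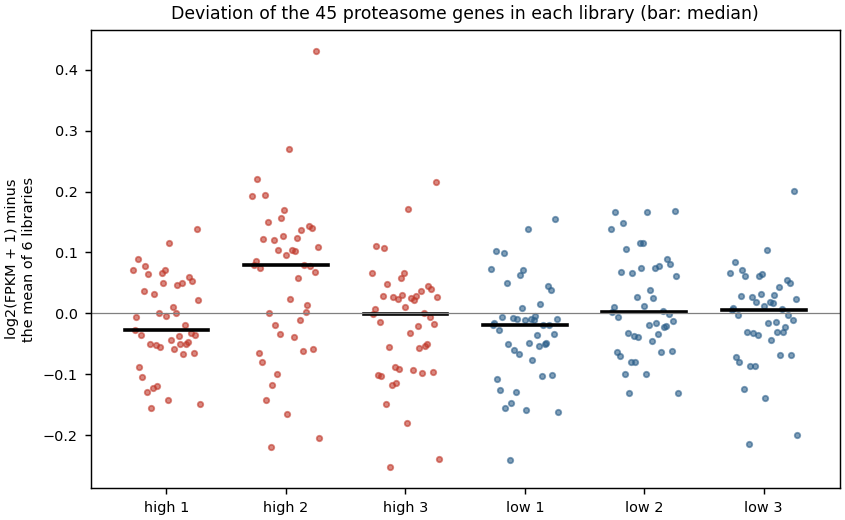
Deviation of log2(FPKM + 1) from the mean over 6 libraries for each of the 45 proteasome genes, by library, with the median as a bar, high libraries left of low. The median is 0.079 in high library 2 and between −0.027 and 0.0061 in the other 5 libraries.

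Within the members, the deviation of high library 2 went along with base composition. Whether base composition accounts for the larger share of members than of all genes that were highest in this library was not tested. Across the 45 members, the deviation of this library, relative to the other 5 averaged, had a Spearman rho of 0.570 with transcript GC content, and across all genes tested with an annotation the rho was 0.450. These are descriptions across genes, which share the library and are not replicates. High library 2 was the highest library for 11 of the 15 members richest in GC, for 11 of the middle 15 and for 2 of the 15 poorest. Low library 2 had the opposite trend, with a rho of −0.537 over the members and −0.499 over all genes tested with an annotation. In the remaining libraries the rho over the members went from −0.348 (high library 3) to 0.169 (low library 3). The difference between the groups also rose with GC content, with a rho of 0.399 over the members and 0.401 over 11910 genes. Of the 15 GC-richest members 12 were higher in the high group, of the middle 15 there were 11, and of the 15 GC-poorest, among them Psmd14 at 43.2% GC, there were 5. Median GC content was 49.8% for members and 50.7% for all genes, whereas transcripts of members were short, with a median of 1430 bases against 3211 bases. When each library was corrected for its trend on GC content and transcript length, 24 of 45 members were higher, and the log2 difference of Psmd14 was −0.14 (adjusted p = 0.674).

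**Figure D5:**
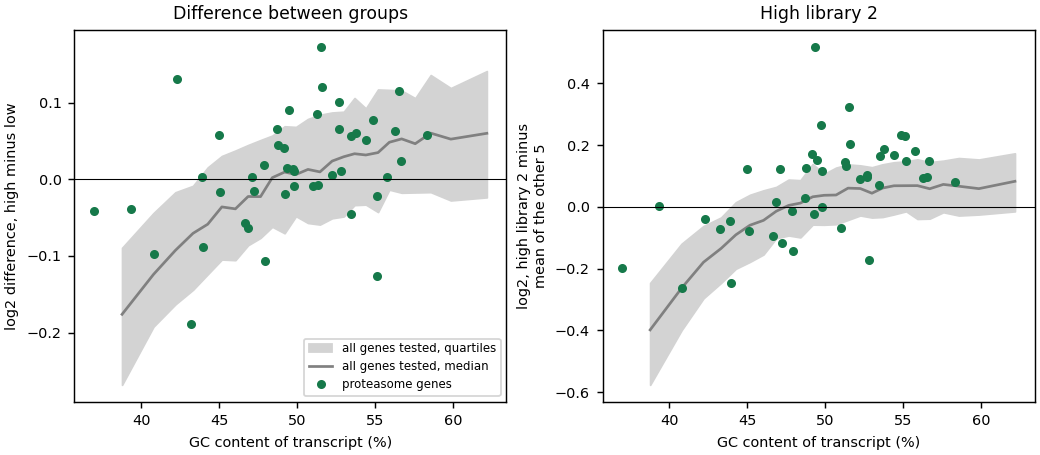
Transcript GC content (%) against the log2 difference between groups (left) and against the deviation of high library 2 relative to the other 5 averaged (right), with proteasome genes as points and the median and quartiles of all genes tested, in 25 bins, as line and band. In both panels the points climb with GC content, with rho of 0.399 and 0.570. On the right, many points of middle or high GC content lie above the band.

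Genes that work with the proteasome were taken from a list of 35: docking and shuttle factors, ubiquitin genes, deubiquitinases and ligases that act at the proteasome, and regulators of proteasome genes. The list also held Psmb8 and Psmb9. Of the 35, 31 were in the table and tested, and 14 were higher and 17 lower. Limma called 0 of them, 1 had an unadjusted p under 0.05, and the median log2 difference was −0.04. The groups did not overlap in 6, all lower in the high group, where 7.61% of all genes tested were lower without overlap. Zfand5, a zinc finger protein that binds the proteasome and stimulates degradation, had the smallest p. It had 16.2, 13.0 and 15.8 FPKM in high-motivation libraries, against 17.8, 17.7 and 18.1 FPKM in low-motivation libraries. The low libraries lay close together above all high ones, and high library 2 was the lowest (log2 difference −0.24, SE 0.0866; adjusted p = 0.575). The difference was −0.15 without high library 2, −0.30 without high library 1 and −0.089 with the GC and length trend removed.

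Ngly1, which removes glycans from NFE2L1 and so allows its activation, had 2.75, 2.15 and 2.58 FPKM in high-motivation libraries, against 2.94, 3.06 and 2.97 FPKM in low-motivation libraries (log2 difference −0.19, SE 0.0905; adjusted p = 0.599). High library 2 was again the lowest, and the other high libraries lay just below the low ones. Without high library 2 the difference was −0.12, without high library 1 it was −0.25, and with the GC and length trend removed it was −0.11. Zfand2a, a proteasome-associated protein induced by arsenite, had 20.01 ± 0.965 FPKM in the high-motivation group, against 22.0 ± 0.809 FPKM in the low-motivation group, without overlap (adjusted p = 0.605). Its log2 difference was −0.13. This was −0.16 without high library 2, −0.092 without high library 3 and −0.14 with the GC and length trend removed. Akirin2, which carries proteasomes into the nucleus, had 26.2 ± 2.60 FPKM in the high-motivation group, against 29.1 ± 1.20 FPKM in the low-motivation group, without overlap (log2 difference −0.15, adjusted p = 0.625). This was −0.069 without high library 2, −0.19 without high library 3 and −0.15 with the GC and length trend removed. The shuttle factor Ubqln1 stood at 36.9 ± 2.51 FPKM in the high-motivation group, against 39.9 ± 1.74 FPKM in the low-motivation group, with overlap (log2 difference −0.11, and −0.058 without high library 2). Nfe2l1, the transcription factor that raises proteasome genes when the protease is inhibited, had 73.1 ± 5.19 FPKM in the high-motivation group, against 70.5 ± 2.64 FPKM in the low-motivation group, also with overlap (log2 difference 0.05, SE 0.0714; adjusted p = 0.848). Nfe2l1 was added to the named genes after its values were seen.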

How the data were processed

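Gene expression was deposited by the authors as FPKM, 1 column per library, with 1 row for each of 13170 genes, by the name of the deposited table. The authors used HISAT2, StringTie and fastp on build GRCm38, per the submitters' processing notes, which give no versions, settings or annotation. The deposited log2 fold change equals log2 of the ratio of group means, and the deposited p-value is the unadjusted one of an equal-variance comparison on untransformed FPKM, as recomputing both showed.

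FPKM are not counts, so log2(FPKM + 1) was fitted in R 4.3.3 by limma 3.58.1, allowing for a variance trend, over the 12026 genes with a mean of at least 1 FPKM, 2-sided, Benjamini-Hochberg at 0.05. The limma fit was also run on simulated data with noise independent between genes. Such data lack the GC trends of these libraries, so that run cannot show how the fit behaves under them. Single ratios had exact permutation tests. Transcript length and GC content come from the longest coding transcript in GENCODE, and promoters from RefSeq. The rest used Python 3.11.15 with pandas 2.3.3, scipy 1.17.1, numpy 2.4.6 and, for figures, matplotlib 3.10.9. Relative depth is the most common ratio of FPKM between libraries over 1428 genes under 1.5 FPKM in all libraries. The rule for named genes took the proteolytic subunits, members with separate groups, the highest and lowest member, the smallest p of each role and up to 6 related genes by p, 1 of which is not reported here. Values of Psmd7, Psmd10, Psmg4, Psme2 and a few others were added after they were seen. Members and lists were chosen with earlier results of these data known, and the 1.3-fold bound, GC groups and motifs after values were seen. An earlier, slightly smaller bound and a longer NRF1 motif were tried first, and set the proteasome genes against all genes in the same direction.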

Additional observations from a re-analysis of the deposited data

How the results depend on the processing

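Under 19 alternatives, 0 genes, 0 proteasome members and 0 related genes were called each time. The number of members higher in the high group stayed between 21 and 29, and their median log2 difference between −0.0024 and 0.049, both with the lowest value without high library 2. Psmd14 kept its sign throughout, at −0.26 to −0.14, as did Psmd12 (−0.19 to −0.064) and Psmd9 (0.075 to 0.13). The adjusted p of Psmd14 by limma was lowest with array weights, at 0.223. Its unadjusted p was no longer under 0.05 with the GC and length trend removed, without high library 1 or without low library 2. With that trend removed, and without low library 2, Psmd10 was the only member under 0.05. Beside Psmd14, Psmg4 was under 0.05 with array weights and without high library 2, and Psmb10 without low library 3. In those 3 settings 13.0%, 11.0% and 7.08% of all genes tested were under 0.05. Of 19 genes followed, 13 kept their sign. Psmb5 was −0.047 after removal of the GC and length trend and −0.036 to 0.082 with 1 library left out. Psmb6 was −0.013 with quantile normalization, −0.044 with array weights, −0.068 after that removal and −0.070 to 0.048 with 1 library left out. Psmc3ip was 0.016 with quantile normalization, 0.028 with array weights and −0.050 to 0.035 with 1 library left out. Psmg3 was −0.0080 after the GC and length removal, and Psme1 was −0.00078 to 0.15 with 1 library left out. With low libraries 1 and 3 both left out, an alternative chosen after seeing the data, Psmc3ip was 0.017 and Psmg1 −0.029. The cause was not tested.

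The deviations of same-numbered libraries from their group means, across genes, had r = −0.0939, −0.206 and −0.156 for numbers 1, 2 and 3. Between libraries of different numbers, r went from −0.0294 (high 3 with low 1) to 0.183 (high 3 with low 2). Such values also take in trends across many genes. Over all genes tested, the deviation relative to the other 5 libraries averaged had a rho with GC content of 0.450 in high library 2 and −0.499 in low library 2. Whether the numbers mark pairs of libraries was not tested. With the replicate number as a block, 0 genes were called, 28 members were higher and the adjusted p of Psmd14 was 0.757. With 3 libraries per group and unknown absolute depth, small differences are not detectable.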
